A study of Mus musculus with 4 samples.

Results

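The genes described here are the chloride and fluid secretion genes of the crypt: Cftr, Slc12a2, Kcnq1, Kcne3, Guca2a, Guca2b and Gucy2c, which are 7 of the 32285 genes in the 2 count matrices. They were chosen by name, as the transport machinery of crypt chloride secretion and the guanylin signal that drives it, and all 7 were found in the matrices. The cells came from the distal small intestine of 8 mice with an Lgr5-EGFP-IRES-CreERT2 allele together with Rosa26-mTmG, a reporter that turns green in Lgr5-expressing cells and their descendants once 4-OH-tamoxifen is given. From each mouse 2 gates were sorted for single-cell RNA sequencing: GFP-high cells, called clones, and GFP-negative, non-recombined epithelium, called control. The 4 groups were clones traced for 72 h, clones traced for 48 h, control cells of the mice traced for 72 h and control cells of the mice traced for 48 h, each from 4 mice. Mice 1 to 4 were traced for 48 h and mice 5 to 8 for 72 h. All mice carried both alleles and received 4-OH-tamoxifen, and the Cre is expressed from the Lgr5 locus. Villi had been scraped off before the crypts were taken, and cells were stained for EpCAM, CD31 and CD45 before the sort. The Lgr5 allele itself encodes a green protein, so the GFP-high gate may also have taken cells by their Lgr5 level, which was not tested.

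In the GENCODE M21 annotation of GRCm38, Cftr (ENSMUSG00000041301) lies at chr6:18170687-18322768 on the plus strand and Gucy2c (ENSMUSG00000042638) at chr6:136697284-136781765 on the minus strand. Kcnq1 (ENSMUSG00000009545) lies at chr7:143106362-143427042 and Kcne3 (ENSMUSG00000035165) at chr7:100176502-100184869, both on the plus strand. Slc12a2 (ENSMUSG00000024597) lies at chr18:57878678-57946821 on the plus strand. Guca2a (ENSMUSG00000023247) at chr4:119637704-119639471 on the plus strand and Guca2b (ENSMUSG00000032978) at chr4:119656607-119658954 on the minus strand are neighbours, with 17135 bases and 0 annotated genes between them. Kcnq1 overlaps the antisense RNA Kcnq1ot1, and Cftr and Kcne3 each overlap an antisense gene too (Gm15592 and Gm34821). Whether counting used the strand is not given in the sources used here, so reads of these 3 genes cannot be told apart from antisense reads with certainty.

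Intestinal crypts secrete fluid by moving chloride into the lumen, and water follows. Slc12a2 (NKCC1), the sodium-potassium-chloride cotransporter, brings chloride in through the basolateral membrane, and Cftr, the chloride channel that is opened through cyclic nucleotide-dependent kinases and is defective in cystic fibrosis, lets it out at the apical side. Kcnq1, a potassium channel, and Kcne3, its partner subunit, recycle potassium at the basolateral membrane and so keep the driving force for chloride. Guca2a (guanylin) and Guca2b (uroguanylin) are small peptides released into the lumen, where they bind Gucy2c, the receptor guanylate cyclase whose cyclic GMP leads to opening of Cftr. Gucy2c is also the receptor of the heat-stable enterotoxin of diarrhoeal bacteria.

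Guca2a and Guca2b face each other from opposite strands and had like patterns over the cell classes, so the promoters of both are shown, 5′ to 3′ on the strand of the gene, from RefSeq on GRCm38.p6. Each run holds 300 bases around the annotated start, at chr4:119637482-119637781 for Guca2a and chr4:119658896-119659195 for Guca2b. Capitals mark the motif matches that are described after them.
Guca2a promoter: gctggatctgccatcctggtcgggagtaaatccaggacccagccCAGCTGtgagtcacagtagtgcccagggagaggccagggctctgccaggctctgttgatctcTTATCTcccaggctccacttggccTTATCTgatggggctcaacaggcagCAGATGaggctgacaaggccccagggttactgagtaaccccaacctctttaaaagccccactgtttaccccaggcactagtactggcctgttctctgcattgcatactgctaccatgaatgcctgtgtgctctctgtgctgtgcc
Guca2b promoter: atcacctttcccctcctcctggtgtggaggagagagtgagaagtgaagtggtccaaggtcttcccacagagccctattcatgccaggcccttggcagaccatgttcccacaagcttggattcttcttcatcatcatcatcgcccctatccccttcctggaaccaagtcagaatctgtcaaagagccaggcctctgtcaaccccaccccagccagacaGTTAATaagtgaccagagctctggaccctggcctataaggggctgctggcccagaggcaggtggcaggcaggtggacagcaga
Both strands were searched for short letters that transcription factors are known to bind. The letters AGATAA, bound by GATA factors, were found at 2 places in the Guca2a promoter, both on the opposite strand and so in the printed run as their reverse complement, and at 0 places in that of Guca2b. They stood in 11.2% of 32851 promoters of the same length. An E-box with the letters CAGCTG was found at 1 place in the Guca2a promoter alone and in 16.3% of promoters. Another E-box, CAGATG, was likewise found at 1 place for Guca2a alone and in 17.2% of promoters. The Guca2b promoter held GTTAAT, a part of the HNF1 site, at 1 place, whereas that of Guca2a did not, and 7.1% of promoters did. Neither promoter held the CDX letters TTTATG, which 11.9% of promoters held. Neither held TATAAA, the TATA box as searched, which 13.6% of promoters held. No matches overlapped. The matched letters of the neighbouring genes thus differed, which describes these windows and not the binding of any factor.

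Clones and control cells of a mouse were sequenced in opposite pools, which held 3342 barcodes with 30278443 unique molecular identifiers (UMIs, 1 per captured transcript) and 2110 barcodes with 28050962 UMIs. The pools shared 1 barcode. After hashtag assignment and filters 1993 cells remained: 631 clone cells at 72 h (40 to 326 per mouse, 813389 to 6370450 UMIs), 110 clone cells at 48 h (4 to 83, 77566 to 298850 UMIs), 666 control cells of the 72 h mice (77 to 261, 1950263 to 5186012 UMIs) and 586 of the 48 h mice (74 to 218, 1471640 to 5042193 UMIs). The 48 h clones were therefore the least precise group. The 83 clone cells of mouse 3 stood apart by their shallow depth (median 1841 UMIs, against 5662 to 23790 in the clones of the other mice), and 14 of their cells lay in a goblet cluster with a median of 1615.5 UMIs. Immune, endothelial, stromal and erythroid markers summed to at most 49.4, 16.7, 29.2 and 0.524 CPM (counts per 1000000 UMIs) in any mouse and gate. Cells were clustered without the 7 genes and without 83 related genes, and clusters were named from marker lists. Classes are named for the cell type that they resemble: 571 stem, 470 goblet, 414 dividing, 170 enterocyte, 82 Paneth, 52 dividing secretory, 48 tuft and 34 enteroendocrine cells. A further 84 cells led by Slfn9 and 68 led by Dmbt1 were left unnamed. The genes that follow, other than Fabp6, are on those marker lists, so their levels describe the classes and do not test the names. Lgr5 and Olfm4 were at 179 and 4583 CPM in the stem class, and at 145 and 4458 CPM in the unnamed Slfn9-led cells. Muc2 was at 8346 CPM in goblet cells, Defa24 at 61134 CPM in Paneth cells, Fabp6 at 19244 CPM in enterocytes, Dclk1 at 2079 CPM in tuft cells and Chga at 5651 CPM in enteroendocrine cells.

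In the control epithelium Cftr, Slc12a2 and Kcne3 had their highest mean levels in stem cells and in the unnamed Slfn9-led cells, whose Lgr5 and Olfm4 lay near those of stem cells. Kcnq1 was highest in these classes and in tuft cells, and both guanylins in Paneth, goblet and dividing secretory cells. Gucy2c was spread over every class. Values by class are CPM of the UMIs summed over the cells of a class in 1 mouse, as mean ± SD over the control mice with at least 5 such cells. Within each gene's order of levels over the classes, 29 pairs of neighbours shared at least 4 mice. After Benjamini-Hochberg adjustment over these tests 0 of 29 passed (exact sign-flip tests over mice, two-sided). With 4 to 8 mice the smallest possible p ran from 0.125 to 0.00781, so no pair could pass on its own among 29 tests. The tests thus neither fix the order of next neighbours nor show that neighbours were alike. For Guca2a, enterocytes lay above Dmbt1-led cells, the next class, in 5 of 5 mice. For Cftr, Dmbt1-led cells lay above dividing cells, the next class, in 2 of 5. Most contrasts that follow are between classes set farther apart. Those of goblet cells with enterocytes for Guca2b and of tuft with stem cells for Kcnq1 are between neighbours.

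Cftr, the apical chloride channel, averaged 204 ± 60.5 CPM in Slfn9-led cells (SD, n = 4), 183 ± 40.3 CPM in stem cells (n = 8), 162 ± 65 CPM in Dmbt1-led cells (n = 5), 160 ± 29.1 CPM in dividing cells (n = 8) and 125 ± 34.1 CPM in enterocytes (n = 7). It was far lower in the secretory classes, at 12.7 ± 9.82 CPM in goblet cells (n = 8) and 8.55 ± 7.15 CPM in Paneth cells (n = 5). Tuft cells had 10.9 ± 15.6 CPM (n = 4), with 0 in mice 1 and 5. In the 7 mice with both classes, enterocytes had 55.9 to 155 CPM (median 139) and stem cells 113 to 260 CPM (median 188). Enterocytes were lower in 7 of 7 mice, with a mean difference of -0.58 ± 0.28 on the log2(CPM + 1) scale (exact sign-flip test, p = 0.0156, the smallest that 7 mice allow, in 1 of 7 such tests). The ranges of the classes overlapped although the direction was the same in each mouse. Goblet cells were lower than stem cells in 8 of 8 mice, with a difference of -4.08 ± 1.18 on that scale (exact sign-flip test, p = 0.00781, the smallest that 8 mice allow, in 1 of 42 tests of class pairs chosen after values were seen).

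Slc12a2, the cotransporter that loads chloride, separated the classes in another way. It averaged 1370 ± 495 CPM in Slfn9-led cells (SD, n = 4) and 1283 ± 244 CPM in stem cells (n = 8). Middle levels were found in dividing secretory cells (718 ± 119 CPM, n = 3), Paneth cells (695 ± 233 CPM, n = 5), goblet cells (685 ± 180 CPM, n = 8) and dividing cells (660 ± 189 CPM, n = 8). Enterocytes had 15.8 ± 6.16 CPM (n = 7), the lowest level of the 10 classes. Enterocytes ranged from 6.77 to 26.7 CPM and stem cells of the same mice from 902 to 1615 CPM, with no overlap, and the difference of enterocytes from stem cells was -6.37 ± 0.63 on the log2 scale, lower in 7 of 7 mice (exact sign-flip test, p = 0.0156, the smallest possible). The size of this difference depended on which cells were kept: it was -4.63 with at least 2000 UMIs per cell, where enterocytes averaged 83.5 ± 97.7 CPM (SD, n = 8), -5.24 at Leiden resolution 0.6, -5.30 with mitochondrial UMIs under 50% and -5.71 with a pseudocount of 10 CPM. Goblet cells exceeded enterocytes by 5.43 ± 0.57 in 7 of 7 mice (p = 0.0156 by the same exact test). Dividing cells were below stem cells in 8 of 8 mice, with a difference of -0.98 ± 0.44 (exact sign-flip test, p = 0.00781). Enterocytes thus held Cftr with little Slc12a2, and goblet cells Slc12a2 with little Cftr.

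Counts in single cells gave the same picture when each cell was thinned to 2000 UMIs, with shallower cells left out (2 of 129 enterocytes, 16 of 340 goblet and 12 of 289 stem cells of the control). In thinned enterocytes, 22.8% had a Cftr UMI (29 of 127, 95% Wilson interval 16.4% to 30.9%) and 2.36% a Slc12a2 UMI (3 of 127, 0.807% to 6.72%). In thinned goblet cells the shares were 2.16% for Cftr (7 of 324, 1.05% to 4.39%) and 69.4% for Slc12a2 (225 of 324, 64.2% to 74.2%). In thinned stem cells they were 34.7% for Cftr (96 of 277, 29.3% to 40.4%) and 85.2% for Slc12a2 (236 of 277, 80.5% to 88.9%). Without thinning the shares in enterocytes, goblet cells and stem cells were 80.6%, 12.6% and 81.3% for Cftr and 31.8%, 95.3% and 96.5% for Slc12a2. Tuft cells, as a class near 0 for Cftr, had a Cftr UMI in 0 of 35 thinned cells (interval up to 9.89%) and in 5.71% without thinning, so the thinned goblet share lay within the tuft interval. Median depths of these control cells were 28175 UMIs in enterocytes, 23867.5 in goblet, 15812 in stem and 10264 in tuft cells. Intervals cover counting error only. Cftr UMIs of goblet cells were concentrated: the 47 of 470 cells with most Cftr UMIs, over both gates, held 86.9% of them, against 30.4% for the top 57 of 571 stem cells. Up to 20 Cftr UMIs were counted in 1 goblet cell, and how much of the goblet level was free RNA was not tested.

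Kcnq1 and Kcne3, the channel and its partner subunit, shared their high classes but parted in tuft cells. Kcnq1 averaged 105 ± 54.2 CPM in Slfn9-led cells (SD, n = 4), 105 ± 39 CPM in tuft cells (n = 4), 98.1 ± 20.2 CPM in stem cells (n = 8) and 82.2 ± 21.5 CPM in dividing cells (n = 8). It was at 34.3 ± 18.9 CPM in enterocytes (n = 7), 6.74 ± 3.83 CPM in goblet cells (n = 8) and 1.58 ± 1.56 CPM in Paneth cells (n = 5). Kcne3 averaged 194 ± 44.5 CPM in Slfn9-led cells (n = 4), 191 ± 43.7 CPM in stem cells (n = 8) and 141 ± 28.1 CPM in dividing cells (n = 8), against 46.5 ± 9.09 CPM in goblet cells (n = 8), 32.8 ± 21.4 CPM in enterocytes (n = 7) and 4.88 ± 6.7 CPM in tuft cells (n = 4). The tuft values of Kcne3 were 14.2, 0, 0 and 5.34 CPM in mice 1, 2, 5 and 8, and those of Kcnq1 were 156, 66.1, 112 and 85.5 CPM in the same mice. Each tuft value of Kcne3 lay below that of the stem cells of its mouse, and Kcnq1 was higher in tuft cells in 2 of the 4 mice; 4 mice cannot give an exact sign-flip p below 0.125. Over both gates, 4.17% of tuft cells had UMIs of both subunits and 52.5% of stem cells did, without thinning. Enterocytes were below stem cells in 7 of 7 mice for both genes, with differences of -1.62 ± 0.48 for Kcnq1 and -3.06 ± 2.21 for Kcne3 (exact sign-flip tests, p = 0.0156 each). The spread for Kcne3 came with 0 CPM in the enterocytes of mouse 1, against 21.4 to 65.6 CPM in those of the other 6 mice. Without mouse 1 the Kcne3 difference was -2.24 ± 0.50, and it was -1.58 with at least 2000 UMIs per cell, -1.62 at Leiden resolution 0.6, -1.74 with mitochondrial UMIs under 50% and -2.37 with a pseudocount of 10 CPM. The antisense Kcnq1ot1 was counted at 469 CPM in stem cells, 342 CPM in dividing, 247 CPM in tuft and 48.9 CPM in enterocytes over both gates, and its part in the Kcnq1 counts was not tested.

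Guca2a (guanylin) had its highest levels in 3 classes: 4704 ± 951 CPM in Paneth cells (SD, n = 5), 4078 ± 921 CPM in goblet cells (n = 8) and 1616 ± 252 CPM in dividing secretory cells (n = 3). Enteroendocrine cells had only 57.5 ± 41.6 CPM (n = 3). The Paneth class also held Muc2, the goblet mucin, at 7566 CPM over both gates, and the part of goblet RNA in its guanylin level was not tested. The goblet cells of mice 5 to 8 had 4176, 4098, 5275 and 5446 CPM and those of mice 1 to 4 had 3634, 3185, 2804 and 4008 CPM. All 8 lay above the 763 ± 476 CPM of enterocytes (n = 7), which ranged from 253 to 1607 CPM. Goblet cells exceeded enterocytes by 2.69 ± 1.00 on the log2 scale in 7 of 7 mice (exact sign-flip test, p = 0.0156). Enterocytes in turn exceeded stem cells by 3.94 ± 1.17 in 7 of 7 mice (exact sign-flip test, p = 0.0156). Stem, dividing and tuft cells had 50.7 ± 43.5, 46.5 ± 24.6 and 33.6 ± 22 CPM (n = 8, 8 and 4), and after thinning 6.86%, 5.91% and 2.86% of their cells had a Guca2a UMI, against 94.1% of goblet and 57.5% of enterocyte cells. Over control mice the stem level ran from 21.8 to 147 CPM. The Guca2a UMIs of these classes were uneven over cells: over both gates, the 57 of 571 stem cells with most held 69.1% of the stem UMIs, with up to 111 in 1 cell, and the 41 of 414 dividing cells with most held 70.1%, with up to 58 in 1 cell. How much of these levels was free RNA was not tested.

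Guca2b (uroguanylin) averaged 494 ± 148 CPM in Paneth cells (SD, n = 5), 288 ± 23.8 CPM in dividing secretory cells (n = 3), 264 ± 50.9 CPM in goblet cells (n = 8) and 209 ± 125 CPM in enterocytes (n = 7). In enteroendocrine cells it was at 21.3 ± 25.1 CPM (n = 3). Enterocytes had 96.1 to 458 CPM and stem cells of the same mice 7.18 to 31.1 CPM, and enterocytes were higher by 3.61 ± 1.04 in 7 of 7 mice (exact sign-flip test, p = 0.0156). Between goblet cells and enterocytes the difference was 0.54 ± 0.71, with goblet cells higher in 6 of 7 mice (exact sign-flip test, p = 0.109), so at this number of mice it was not told apart from the spread. Paneth cells exceeded goblet cells in 5 of 5 mice, by 0.96 ± 0.36 (exact sign-flip test, p = 0.0625, the smallest that 5 mice allow). Goblet cells and enterocytes were thus told apart by Guca2a and not by Guca2b.

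The share of each peptide's RNA differed between classes. Of all guanylin and uroguanylin UMIs, Guca2a made up 93.8% in goblet cells (44340 to 2921 UMIs over both gates), 89.0% in Paneth cells, 87.2% in dividing secretory cells and 79.8% in enterocytes (3017 to 765 UMIs). Over control mice the share ran from 89.8% to 96.0% in goblet cells and from 68.0% to 87.2% in enterocytes, without overlap. How well each RNA was captured was not measured, and RNA is not peptide, so the shares compare classes and not the abundance of the peptides. Both genes had a UMI in 71.5% of goblet, 97.6% of Paneth and 67.1% of enterocyte cells over both gates, without thinning.

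Within the goblet class, 2 large clusters differed. The Muc2-led cluster had Muc2, Fcgbp and Zg16 as leading genes and the Agr2-led cluster Agr2, Tff3 and Fcgbp, with Creb3l1 among its first 10. In the control mice Guca2a averaged 5110 ± 754 CPM in the Muc2-led and 2637 ± 846 CPM in the Agr2-led cluster and was higher in the Muc2-led one in 8 of 8 mice, by 1.01 ± 0.40 on the log2 scale (exact sign-flip test, p = 0.00781). Guca2b ran the other way, with 217 ± 92.1 CPM in the Muc2-led and 340 ± 91.1 CPM in the Agr2-led cluster, lower in 7 of 8 mice with a difference of -0.72 ± 0.75 (exact sign-flip test, p = 0.0312). The neighbouring genes thus differed in direction between clusters of the same class, and Guca2a made up 95.5% of guanylin UMIs in the Muc2-led and 88.9% in the Agr2-led cluster. Gucy2c averaged 95.05 ± 7.04 CPM in the Muc2-led and 64.0 ± 16.3 CPM in the Agr2-led cluster (higher in 7 of 8 mice, exact sign-flip test, p = 0.0156). In the stem class, the Olfm4-led cluster was below the Edn1-led cluster for Slc12a2 (1032 ± 219 against 1834 ± 311 CPM) and for Kcnq1 (76.5 ± 26.5 against 147 ± 25.5 CPM), each in 6 of 6 mice (exact sign-flip tests, p = 0.0312, the smallest possible). Lgr5 was at 91.4 CPM in the Olfm4-led and 293 CPM in the Edn1-led cluster over both gates. Olfm4 itself was at 3197 CPM in the Olfm4-led and 6383 CPM in the Edn1-led cluster. The names thus give a leading gene and do not mark the cluster with the higher Olfm4. These cluster contrasts were chosen after values were seen, and after Benjamini-Hochberg adjustment over the 14 tests (2 pairs of clusters, 7 genes) none passed 0.05 (each of the 5 named has an adjusted exact p of 0.0875).

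**Figure D1:**
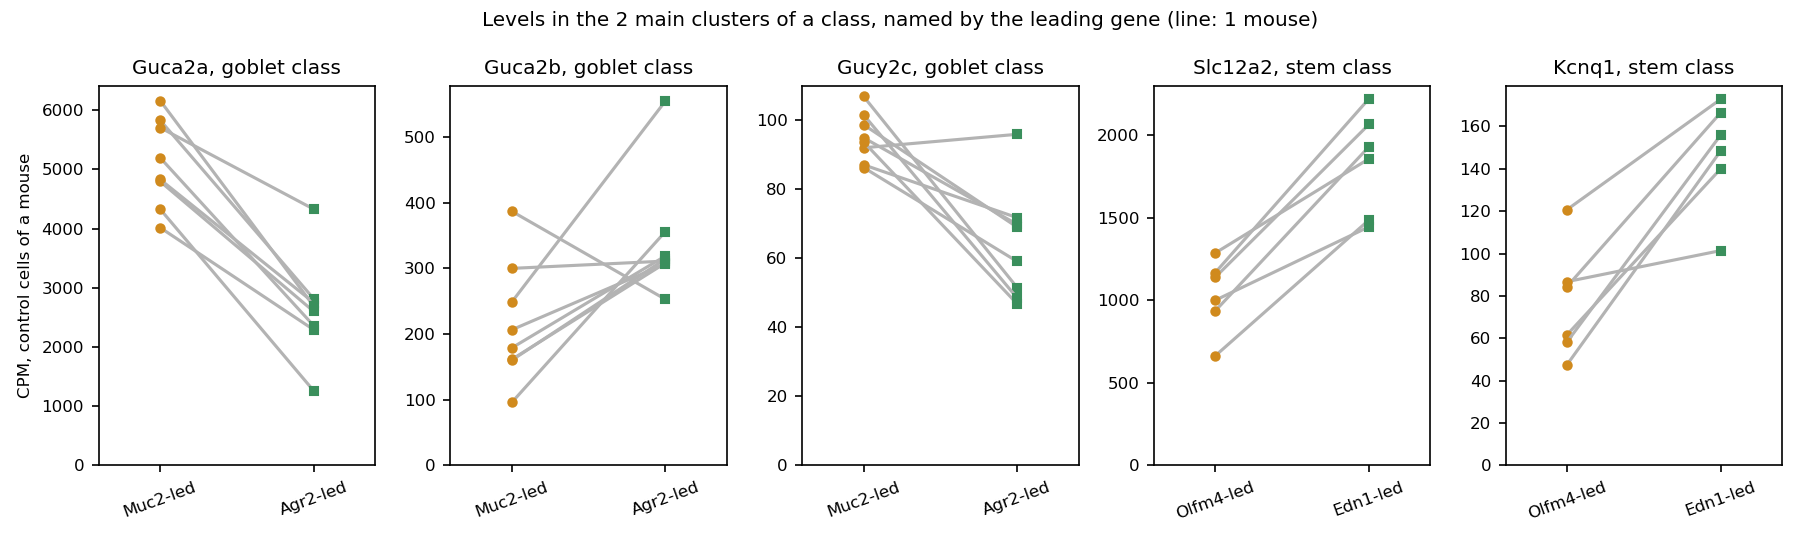
CPM of 5 genes in the control cells of each mouse, in the 2 main clusters of the goblet class (3 left panels) and of the stem class (2 right panels), on linear axes that start at 0; a line joins the clusters of 1 mouse. Guca2a lay higher in the Muc2-led cluster in 8 of 8 mice while Guca2b lay lower there in 7 of 8.

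Gucy2c, the guanylin receptor, had the smallest ratio between its highest and lowest class means among the 7 genes. It averaged 204 ± 89.5 CPM in enteroendocrine cells (SD, n = 3), 167 ± 101 CPM in tuft cells (n = 4), 111 ± 13.4 CPM in Slfn9-led cells (n = 4), 98.3 ± 21.8 CPM in enterocytes (n = 7), 94.2 ± 19.4 CPM in dividing cells (n = 8), 88.0 ± 18.9 CPM in stem cells (n = 8), 82.7 ± 6.8 CPM in goblet cells (n = 8) and 67.5 ± 29.9 CPM in Paneth cells (n = 5). Enterocytes and stem cells differed by 0.09 ± 0.34 on the log2 scale, with enterocytes higher in 5 of 7 mice (exact sign-flip test, p = 0.516). Goblet and stem cells differed by -0.06 ± 0.32, with goblet cells higher in 3 of 8 mice (exact sign-flip test, p = 0.547). These differences are within the spread between mice, which does not show that the classes are equal. The tuft mean rests on mouse 5, with 318 CPM, against 110 to 128 CPM in the tuft cells of the other 3 mice. In enteroendocrine cells the values were 254, 256.1 and 100.3 CPM in mice 1, 3 and 6.

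**Figure D2:**
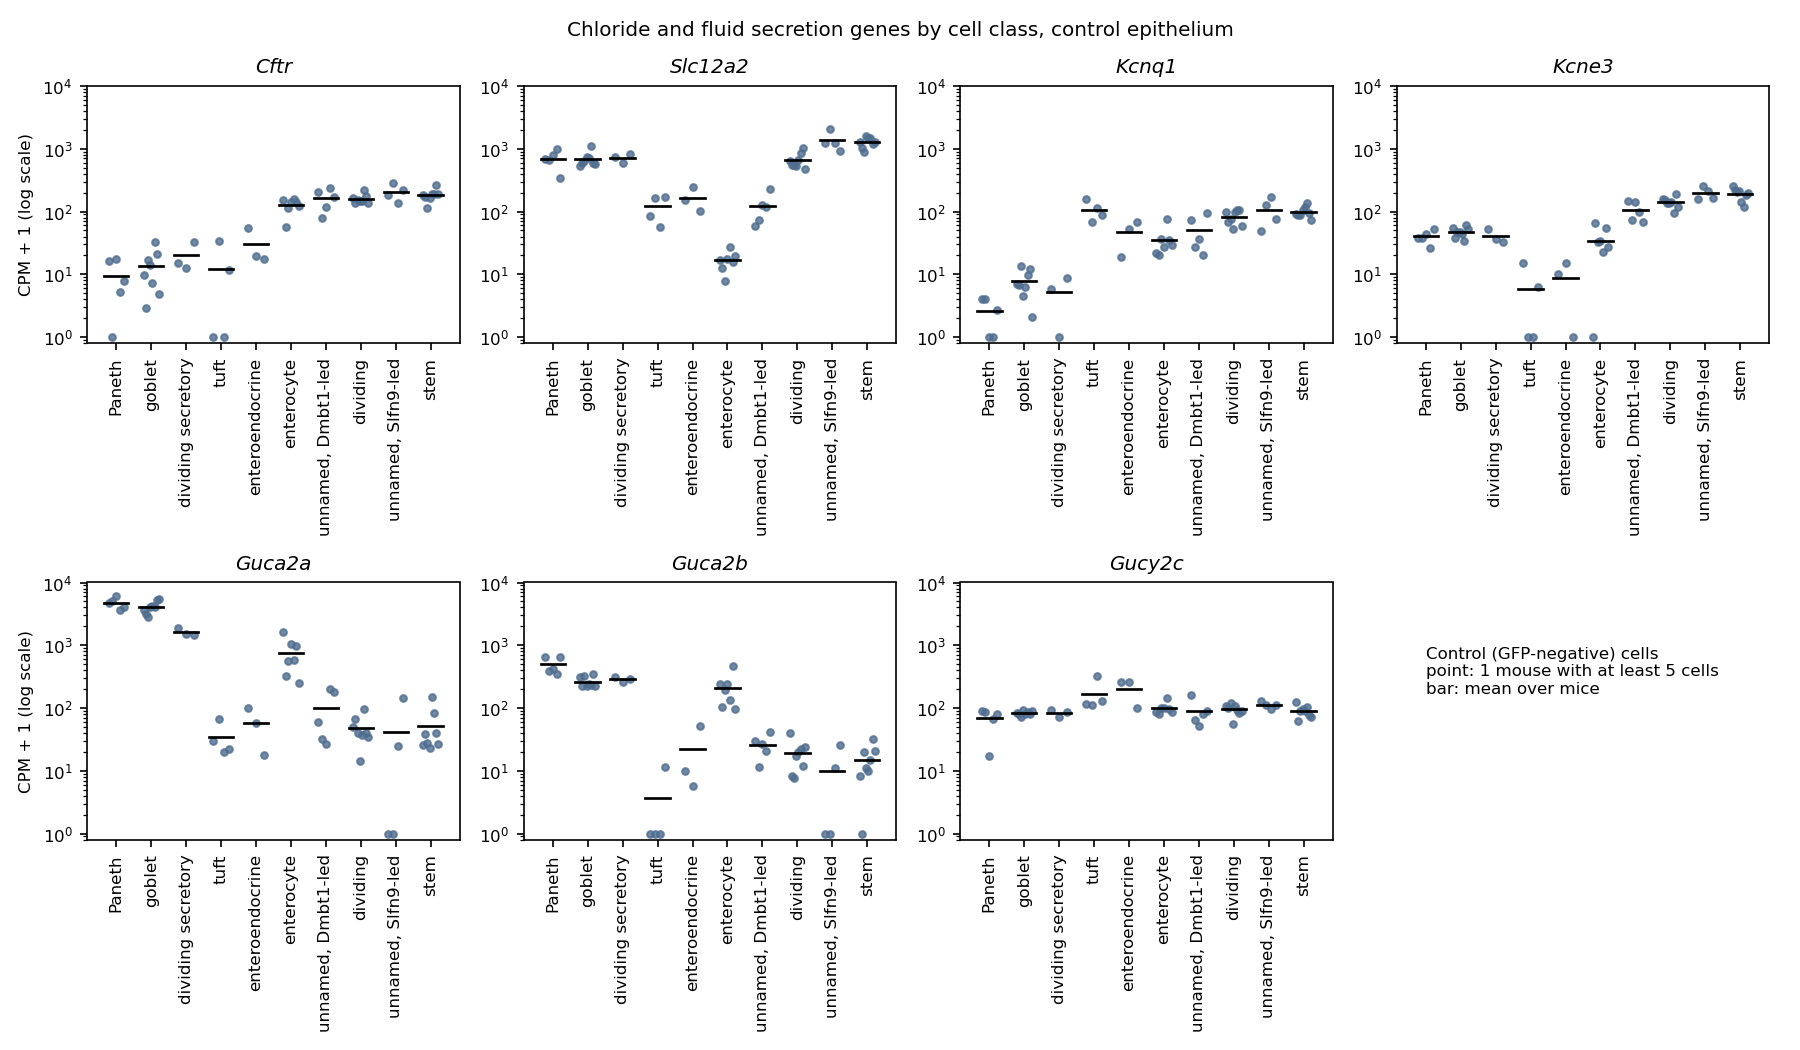
CPM + 1 of the 7 genes on a logarithmic axis, by cell class, in control cells; each point is 1 mouse with at least 5 cells of the class and each bar the mean over mice. Guca2a and Guca2b are high in the 3 secretory classes at the left and in enterocytes, Cftr and Kcnq1 are low in goblet and Paneth cells, and Slc12a2 is lowest in enterocytes (15.8 CPM).

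As a description over the 10 control classes, with cells of the same mice and pools behind every point and no test, the genes whose log2(CPM + 1) ran most like each member among 11005 genes were these. For Cftr they were Mgam (Pearson r = 0.987), Mpzl2 (0.975) and Cd302 (0.969). For Slc12a2 they were 5430416N02Rik (0.955), Snhg12 (0.955) and Snhg5 (0.954). For Kcnq1 they were Notch1 (0.983), Kcnq1ot1 (0.980) and Ddi2 (0.973), and for Kcne3 they were Cd14 (0.975), Smpdl3b (0.972) and Thumpd2 (0.970). Guca2a ran most like Guca2b (0.977), its chromosomal neighbour, then P4hb (0.973) and Pdxdc1 (0.961), and Guca2b like Guca2a and P4hb (0.970). For Gucy2c they were Kbtbd7 (0.983), Med13 (0.974) and Dyrk1a (0.971).

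When all cells of a mouse and gate were summed, the transport genes tended to lie higher in clones and the guanylins lower, and without pairing by mouse 0 of 7 genes passed the test. In such sums fewer cells of a type and less RNA per cell cannot be told apart. The gates also differed in make-up: the median share of stem cells was 45.3% in 72 h clones and 60.8% in 48 h clones, against 29.4% and 17.9% in the control cells of the 72 h and 48 h mice. The median share of goblet cells was 17.7% in 72 h clones and 15.7% in 48 h clones, against 23.4% and 32.3% in control cells, and that of enterocytes 3.3% in both clone groups, against 11.9% and 6.66%. The part of these shares in the differences over all cells was not tested in a model, and values within a class are given further on.

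Cftr had 151.6, 139, 175 and 133 CPM in the clones of mice 5 to 8, against 124, 131, 128 and 66.9 CPM in their control cells. In mice 1 to 4 it had 219, 160, 171 and 94.7 CPM in clones, against 86.3, 88.3, 76.0 and 76.8 CPM in control cells. Clones were higher in 8 of 8 mice, and at each time the clone and control ranges did not overlap. The nearest values were 133 against 131 CPM at 72 h and 94.7 against 88.3 CPM at 48 h. The clone values of mice 1 to 4 came from only 17, 39, 51 and 12 UMIs. Averaged over both times the log2 fold change was 0.63 ± 0.14 (SE; edgeR quasi-likelihood test, adjusted p = 0.0916). At 48 h it was 0.89 ± 0.22 (edgeR, adjusted p = 0.234) and at 72 h 0.38 ± 0.18 (edgeR, adjusted p = 0.627). With the mouse as a block, which compares the gates within each animal, Cftr rose in clones by 0.65 ± 0.12 (edgeR, adjusted p = 0.00615), and at 48 h alone by 0.88 ± 0.20 (edgeR, adjusted p = 0.0404). Without the block Cftr passed when mouse 4 was left out (0.73, edgeR, adjusted p = 0.0417) or mouse 8 (0.59, edgeR, adjusted p = 0.0435).

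Slc12a2 had 1252, 1254, 1256 and 775 CPM in the clones of mice 5 to 8, against 759, 1014, 741 and 484 CPM in their control cells. In mice 1 to 4 it had 915, 1184, 639 and 876 CPM in clones, against 612, 629.9, 588 and 727 CPM in control cells. It too was higher in clones in 8 of 8 mice, with ranges that overlapped at each time. The log2 fold change was 0.49 ± 0.16 over both times (SE; edgeR, adjusted p = 0.154). With the mouse as a block it was 0.49 ± 0.10 (edgeR, adjusted p = 0.00985), and at 72 h alone 0.58 ± 0.14 (edgeR, adjusted p = 0.0311).

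Kcne3 averaged 112 ± 24.9 CPM in 72 h clones and 172 ± 90.1 CPM in 48 h clones, against 89.3 ± 24.5 and 98.3 ± 5.56 CPM in the control cells of the 72 h and 48 h mice (SD, n = 4 each). Clones were higher in 7 of 8 mice, the exception being mouse 3, and the log2 fold change was 0.50 ± 0.19 (SE; edgeR, adjusted p = 0.201). Kcnq1 averaged 79.2 ± 21.4 and 64.8 ± 44 CPM in clones at 72 h and 48 h, against 56.5 ± 22.7 and 43.7 ± 6.7 CPM in the control cells (SD, n = 4 each). Clones were higher in 6 of 8 mice, with a log2 fold change of 0.57 ± 0.26 (edgeR, adjusted p = 0.277). Neither subunit passed with the mouse as a block (edgeR, adjusted p = 0.0946 for Kcne3 and 0.104 for Kcnq1).

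Guca2a had 1076, 1640, 805 and 1196 CPM in the clones of mice 5 to 8, against 1390, 1341, 1835 and 2584 CPM in their control cells. In mice 1 to 4 it had 12.9, 238, 552 and 2108 CPM in clones, against 1596, 1470, 1113 and 2064 CPM in control cells. Mouse 1 had 4 clone cells, all of the stem class, and mouse 4 had 8, of which 6 were stem and 2 goblet cells. Clones were lower in 6 of 8 mice, and the ranges overlapped at each time. The log2 fold change was -0.92 ± 0.44 (SE; edgeR, adjusted p = 0.308), and with the mouse as a block Guca2a fell in clones by 1.20 ± 0.30 on the log2 scale (edgeR, adjusted p = 0.0306).

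Guca2b had 97.4, 161, 87.6 and 119 CPM in the clones of mice 5 to 8, against 125, 106, 204 and 191 CPM in their control cells. In mice 1 to 4 it had 0, 32.8, 134 and 7.89 CPM in clones, from 0, 8, 40 and 1 UMIs, against 172, 108, 151 and 152 CPM in control cells. Clones were lower in 7 of 8 mice, mouse 6 being the exception, with a log2 fold change of -0.89 ± 0.29 (SE; edgeR, adjusted p = 0.153). With the mouse as a block it fell by 0.89 ± 0.25 (edgeR, adjusted p = 0.0497). Without mouse 3, whose 83 shallow clone cells stood apart, the unblocked value was -1.81 (edgeR, adjusted p = 0.0350). Leaving out the clone and control sums of this mouse thus changed the unblocked call.

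Gucy2c averaged 93.2 ± 4.56 and 99.4 ± 46.6 CPM in clones at 72 h and 48 h, against 90.5 ± 7.79 and 94.7 ± 6.85 CPM in the control cells (SD, n = 4 each). Clones were higher in 4 and lower in 4 of the 8 mice, and the log2 fold change was 0.08 ± 0.12 (SE; edgeR, adjusted p = 0.823).

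Against the background, the 0 of 7 called without the block stand beside 0.00943% of 10606 genes called over both times (1 gene), 0% at 48 h and 0% at 72 h (edgeR, adjusted p under 0.05). With the block, 4 of 7 were called over both times, against 4.5% of genes. At 48 h 1 of 7 was called, against 0.896% of genes, and at 72 h 1 of 7, against 1.87%. At an unadjusted p under 0.05 without the block, 5 of 7 members passed over both times, against 16.8% of 10606 genes, 3 at 48 h, against 12%, and 2 at 72 h, against 7.94%. Without mouse 3 the unblocked log2 fold changes over both times were 0.60 ± 0.18 for Cftr, 0.53 ± 0.17 for Slc12a2, 0.73 ± 0.31 for Kcnq1, 0.67 ± 0.18 for Kcne3, -0.92 ± 0.49 for Guca2a and -0.09 ± 0.13 for Gucy2c (SE; edgeR, none of these 6 called). DESeq2 called 2 of 7 over both times (Cftr and Slc12a2), against 4.55% of the 5917 genes it gave an adjusted p. At 48 h it called 1 (Cftr), against 1.64% of 4018 genes, and at 72 h 0, against 0.0357% of 19588 genes.

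**Figure D3:**
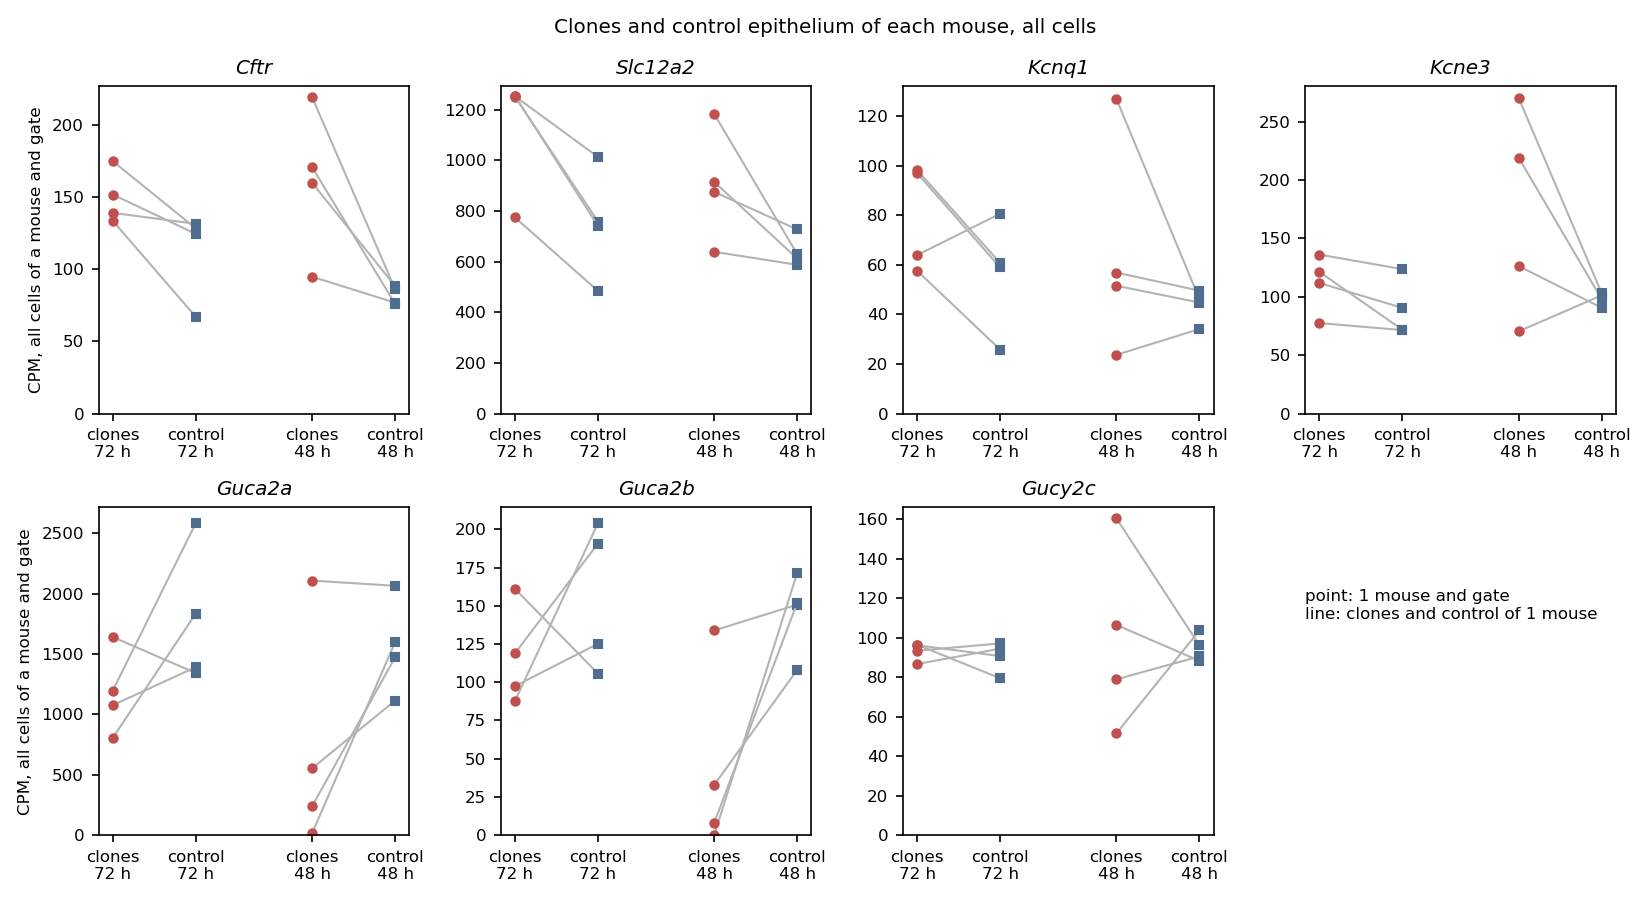
CPM of the 7 genes over all cells of a mouse and gate, on linear axes that start at 0, for clones (circles) and control cells (squares) at 72 h and at 48 h; each line joins the gates of 1 mouse. Clones lay above the control cells of their mouse for Cftr and Slc12a2 in 8 of 8 mice, and below them for Guca2b in 7 of 8.

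Where the UMIs of each gene lay differed between gates. In clones the stem class held 43.7% and the dividing class 32.5% of the Cftr UMIs, against 33.2% and 32.8% in control cells. Of all UMIs these classes held 31.9% and 25.6% in clones, against 17.4% and 19.9% in control. For Slc12a2 the stem class held 48.4% in clones, against 34.8% in control, and the goblet class 15.0%, against 28.3%. Goblet cells held 74.0% of the Guca2a UMIs in clones and 71.4% in control, with Paneth cells next at 15.3% and 17.6%. For Guca2b the goblet share was 58.0% in clones, against 49.1% in control, and the enterocyte share 7.79%, against 15.5%. Gucy2c UMIs were spread much as all UMIs were, with 29.9% in clone and 16.95% in control stem cells.

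**Figure D4:**
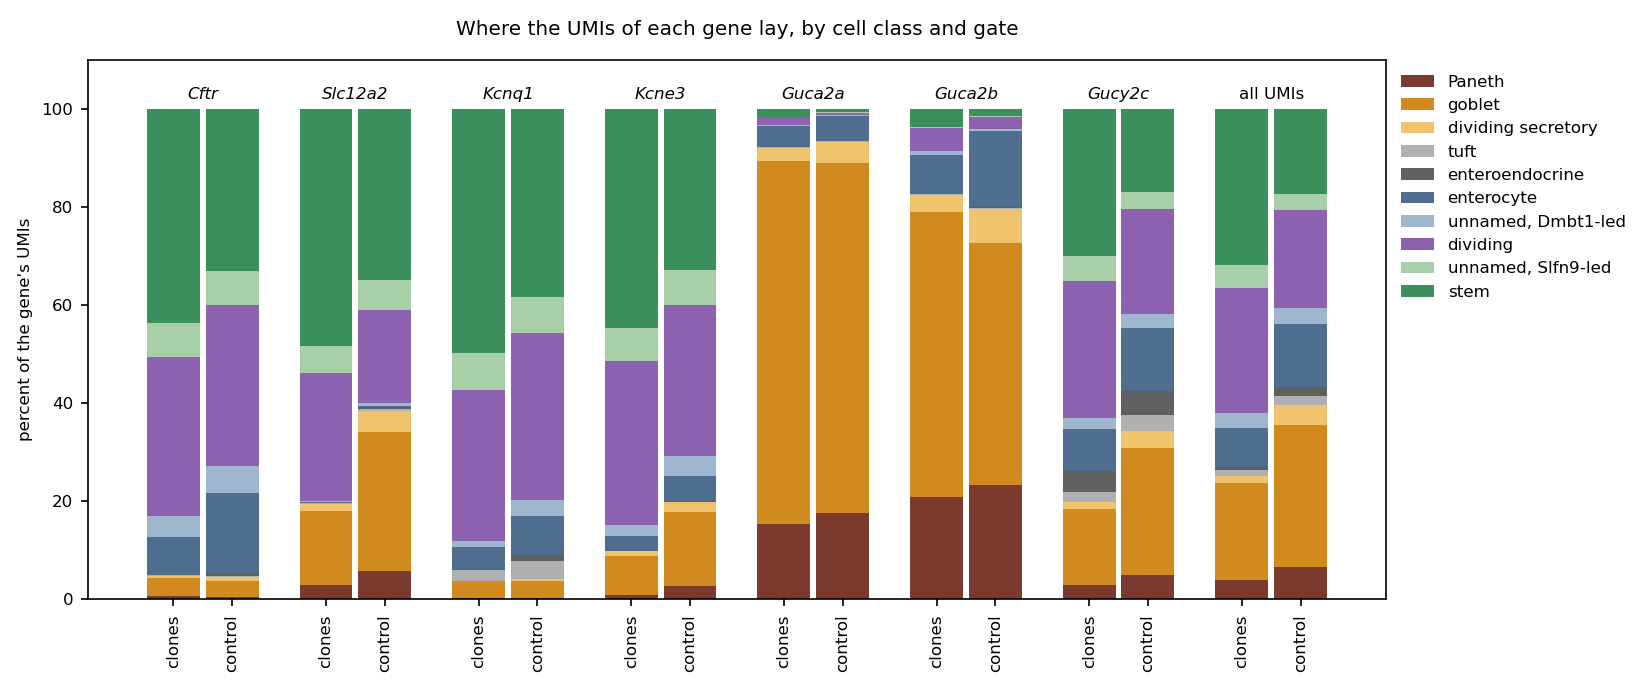
Share of the UMIs of each gene that lay in each cell class, in percent, for clones (left bar) and control cells (right bar), with all UMIs as the last pair. Goblet cells (orange) held 74.0% and 71.4% of Guca2a, whereas stem and dividing cells (green and violet) held most of Cftr, Kcnq1 and Kcne3.

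Within single classes, gates were compared where at least 3 mice a gate had 10 cells: 5 clone and 7 control sums for stem cells, and 4 clone and 8 control sums each for dividing and goblet cells. No member passed in any class. The background was 0% of 7121 genes in stem, 0.5% of 7602 in dividing and 0% of 7569 in goblet cells (edgeR, adjusted p under 0.05), with 3.08%, 8.95% and 2.58% at an unadjusted p under 0.05, which Slc12a2 reached in dividing cells and Guca2a and Cftr in goblet cells. DESeq2 called 0 members in these classes, against 0.0121% of genes in stem, 0.268% in dividing and 0.00618% in goblet cells. With the mouse as a block, 2 members passed, 1 in dividing and 1 in goblet cells. The background was 0.16% of genes in stem, 1.59% in dividing and 0.0547% in goblet cells. These fits kept only mice with both sums, 5 mice for stem and 4 each for dividing and goblet cells, so they rest on fewer sums.

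In stem cells the transport genes and the receptor differed little between gates over the tested sums. The log2 fold change of clones over control was 0.03 ± 0.14 for Cftr, 0.01 ± 0.17 for Slc12a2, 0.05 ± 0.18 for Kcnq1, -0.07 ± 0.18 for Kcne3 and 0.11 ± 0.14 for Gucy2c (SE; edgeR, adjusted p = 1.00 each). For the guanylins it was -0.08 ± 0.36 for Guca2a and -0.26 ± 0.36 for Guca2b (edgeR, adjusted p = 1.00 each). At 48 h Guca2a was at 306.5, 182 and 109 CPM in the clone stem cells of mice 2, 3 and 4, from 36, 22 and 8 UMIs in 7, 34 and 6 cells, against 37.0, 26.7 and 21.8 CPM in their control stem cells. It was higher in clones in 3 of 3 of these mice, of which mouse 3 alone had the 10 clone cells needed to enter the test. Mouse 1 went the other way, with 12.9 CPM from 1 UMI in clones, against 25.1 CPM in its control stem cells. Its 4 clone cells, all of the stem class, were below the minimum of 5 set for class levels. At 72 h it was at 46.4, 54.8, 34.2 and 81.7 CPM in the clone stem cells of mice 5 to 8, against 147, 83.0, 39.6 and 25.6 CPM in their control stem cells, and was lower in clones in 3 of 4 mice. Cftr in clone stem cells was 183, 199, 210 and 219 CPM in mice 5 to 8, against 191, 191, 260 and 188 CPM in their control stem cells. The Edn1-led cluster made up 49.3% of clone stem cells and 36.7% of control stem cells, and the Olfm4-led cluster 50.7% and 63.3%.

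In dividing cells Slc12a2 stood out. It had 1085, 1177, 1071 and 966 CPM in the clone dividing cells of mice 5 to 8 (34, 5, 26 and 85 cells) and 827 CPM in those of mouse 3 (17 cells). In control dividing cells of the same mice it had 672, 856, 1027 and 481 CPM, and 550.1 CPM in mouse 3. Clones were higher in 5 of 5 mice. The log2 fold change was 0.43 ± 0.16 (SE; edgeR, adjusted p = 0.384), and with the block 0.61 ± 0.15 (edgeR, adjusted p = 0.0191), both over the 4 clone sums with at least 10 cells. Without mouse 5 the unblocked value was 0.28 ± 0.21, and without the other mice it ran from 0.38 to 0.54. Cftr and Kcnq1 in the same cells differed by 0.08 ± 0.16 and 0.02 ± 0.19.

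In goblet cells the values turned on few cells. Guca2a had 4447, 4479, 5562 and 3750 CPM in the clone goblet cells of mice 5 to 8, against 4176, 4098, 5275 and 5446 CPM in their control goblet cells. In mouse 3 it had 1779 CPM in clones, 14 of whose 15 goblet cells lay in the shallow cluster, against 2804 CPM in control cells. The log2 fold change was -0.45 ± 0.18 (SE; edgeR, adjusted p = 1.00), and -0.23 ± 0.15 without mouse 3. Guca2b differed by 0.12 ± 0.19 (edgeR, adjusted p = 1.00), and in goblet cells neither guanylin passed the test after adjustment, although Guca2a reached an unadjusted p of 0.0225 (edgeR). Cftr had a log2 fold change of 1.42 ± 0.55 (edgeR, adjusted p = 1.00) and with the block rose by 1.86 ± 0.40 (edgeR, adjusted p = 0.00729). Clone goblet cells of mice 3, 5 and 8 had 130 (from 3 UMIs), 55.6 and 19.4 CPM, against 15.9, 6.25 and 3.82 CPM in control goblet cells. Mice 6 and 7 were lower in clones, with 4.37 and 4.49 CPM, against 31.6 and 20.2 CPM. Mouse 7, with 9 clone goblet cells, did not enter the fits. In mouse 5, 5 of 12 clone cells of the Agr2-led cluster held 39 Cftr UMIs, with 20 in 1 cell. Without mouse 5 the unblocked value was 0.28 ± 0.69, and without mouse 6 it was 2.48 ± 0.45 (edgeR, adjusted p = 0.0156). Over all mice, Cftr UMIs were found in 15 of 42 clone and 23 of 130 control cells of the Agr2-led cluster (54.8 and 16.1 CPM) and in 6 of 67 clone and 20 of 193 control cells of the Muc2-led cluster (5.67 and 7.46 CPM). Kcnq1 did not pass the filter on low counts in goblet cells.

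At 72 h alone, with 4 clone and 4 control sums for stem cells and 3 clone and 4 control sums for dividing and goblet cells, 0 members passed, against 0%, 0.214% and 0% of genes in stem, dividing and goblet cells. With the block the same pair passed, Slc12a2 in dividing cells (0.62 ± 0.11, edgeR, adjusted p = 3.5e-06) and Cftr in goblet cells (1.80 ± 0.42, edgeR, adjusted p = 0.0222). The background was 0.48%, 3.32% and 0.0813% of genes in stem, dividing and goblet cells. The block kept mice with both sums: 5, 7 and 8 in dividing and 5, 6 and 8 in goblet cells. With terms for gate, mouse and pool, these fits left little to estimate the spread between mice, which the SE and p do not measure well. In mice 5, 7 and 8 Slc12a2 was at 1085, 1071 and 966 CPM in clone dividing cells, against 672, 1027 and 481 CPM in control. For Cftr, goblet cells of mouse 6 went the other way, with 4.37 CPM in clones, against 31.6 CPM in control.

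**Figure D5:**
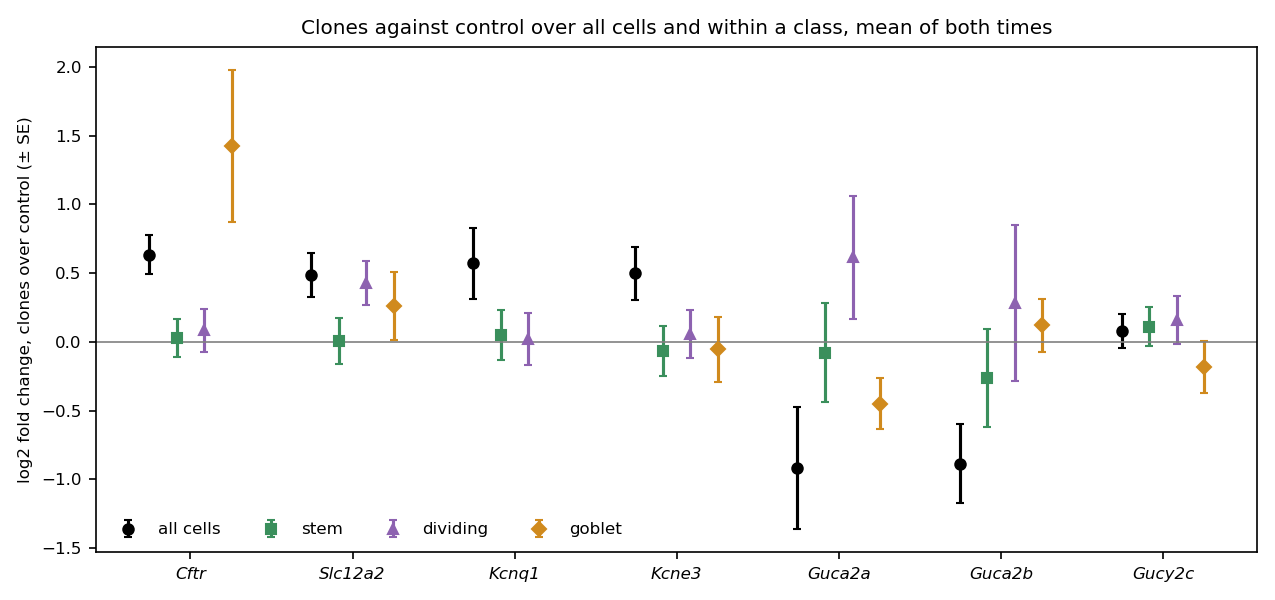
Log2 fold change of clones over control with its SE, as the mean of both times, over all cells and within the stem, dividing and goblet classes, from the fit without a block. Over all cells Cftr, Slc12a2, Kcnq1 and Kcne3 lie above 0 and the guanylins below, while within stem cells the same 4 transport genes lie near 0; Kcnq1 was not tested in goblet cells.

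Between tracing times no member passed in either gate. In clones at 72 h against 48 h, Guca2b had a log2 fold change of 1.01 ± 0.47 (SE; edgeR, adjusted p = 0.781) and Slc12a2 0.45 ± 0.23 (edgeR, adjusted p = 0.785), and 0 of 7 were called, against 0% of all genes. In control cells of the 72 h mice against the 48 h mice, Cftr had a log2 fold change of 0.54 ± 0.18 (edgeR, adjusted p = 0.783), with 0 of 7 called, against 0.0849% of genes. Control Cftr was 124, 131, 128 and 66.9 CPM at 72 h and 86.3, 88.3, 76.0 and 76.8 CPM at 48 h, so mouse 8 alone made the ranges overlap. Without mouse 8 the fold change was 0.73 ± 0.14 (edgeR, adjusted p = 0.0390), which made Cftr pass. The clone-control difference at 72 h minus that at 48 h was -0.50 ± 0.29 for Cftr (edgeR, adjusted p = 0.966), and 0 of 7 members passed for this change, against 0% of genes without the block and 0.0943% with it. At an unadjusted p under 0.05 there were 1 of 7 members in the clones (6.26% of genes), 1 in the control (5.42%) and 0 in the change between times (5.22%), and DESeq2 called 0 members in each, against 0.00511%, 0.196% and 0.0357% of genes.

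Within control classes, 28 comparisons of 72 h with 48 h mice were made after values were seen, and 3 had the smallest p that 4 against 4 mice allow (exact permutation test, p = 0.0286). These were Cftr in stem cells (207 ± 35.1 against 158 ± 31 CPM), Kcne3 in stem cells (159 ± 35.9 against 223 ± 19.8 CPM) and Guca2a in goblet cells (4749 ± 711 against 3408 ± 525 CPM; SD, n = 4 each). The groups did not overlap in these 3 cases, and 0 of 28 passed after Benjamini-Hochberg adjustment over these comparisons (exact permutation tests, adjusted p = 0.267 for the 3).

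The other genes of the pathway were taken from 6 lists with 83 genes, of which 58 passed the filter on low counts. Without the block 0 of 58 were called in any contrast over all cells (edgeR), with 11 of 58 at an unadjusted p under 0.05 over both times, beside 16.8% of all genes, which is a share near that background. With the block, over both times, 3 rose and 2 fell in clones, beside the 4.5% of all genes called in that fit. The median log2 fold change over both times, without the block, was -0.04 over the 58 and -0.04 over all 10606 genes tested, and 0.49 over the 7 members. Among 22 genes of chloride, bicarbonate and cation transport (16 tested, median -0.07), Slc4a4, a sodium-bicarbonate cotransporter, was at 159 ± 41.2 CPM in control enterocytes and 88.0 ± 7.52 CPM in stem cells. Slc4a7, of the same family, was at 402 ± 119 CPM in tuft, 138 ± 83.6 CPM in enteroendocrine and 119 ± 17.7 CPM in goblet cells. Kcnn4, a calcium-activated potassium channel, was at 84.6 CPM in dividing and 69.9 CPM in stem cells. Kcnk6, a potassium channel, was at 122 CPM in goblet and 2.82 CPM in stem cells, and with the block it fell in clones by 1.51 ± 0.27 (edgeR, adjusted p = 0.00362). Slc26a3 and Slc26a6, chloride-bicarbonate exchangers, were at 87.1 and 75.4 CPM in enterocytes and at 10.4 and 3.24 CPM in stem cells. At 72 h with the block both fell in clones, with log2 fold changes of -0.96 ± 0.20 for Slc26a3 and -1.81 ± 0.34 for Slc26a6 (edgeR, adjusted p = 0.0180 and 0.00657).

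Of the 6 sodium pump genes (4 tested, 0 called with or without the block, median 0.03), Atp1b1, a subunit of the pump, was at 1077 CPM in enterocytes and 834 CPM in stem cells. Fxyd3, a pump regulator, was at 933 CPM in Paneth, 536 CPM in enteroendocrine, 526.2 CPM in goblet and 49.1 CPM in stem cells. Of the 6 water channels (3 tested, median 0.47), Aqp1 was at 97.1 CPM in stem and 7.31 CPM in enterocyte cells and with the block rose in clones by 0.68 ± 0.17 (edgeR, adjusted p = 0.0277). Aqp4, which is also on the stem marker list, was at 94.0 CPM in stem cells, and with the block rose at 72 h by 0.65 ± 0.15 (edgeR, adjusted p = 0.0307). Aqp11 was at 66.5 CPM in enterocytes.

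Of the 16 receptors that start or stop secretion (6 tested, 0 called with or without the block, median -0.14), Vipr1, the VIP receptor that raises cyclic AMP, was at 95.7 CPM in enterocytes and 64.3 CPM in stem cells. F2rl1, a protease-activated receptor, and Ptger4, a prostaglandin receptor, were at 68.9 and 70.2 CPM in goblet cells. Of the 21 cyclic nucleotide enzymes and kinases (18 tested, median 0.08), Gnas, the stimulatory G protein subunit, was at 352 to 533 CPM in stem, dividing, enterocyte and goblet cells. Prkar2a and Prkar1a, regulatory subunits of protein kinase A, were at 131 and 86.6 CPM in stem cells, and Prkar1a at 432 CPM in enteroendocrine cells. With the block Pde2a, a phosphodiesterase stimulated by cyclic GMP, fell in clones by 2.22 ± 0.33 (edgeR, adjusted p = 0.00137). It was at 234 CPM in tuft, 72.3 CPM in goblet and 0.445 CPM in stem cells. Pde3a, a phosphodiesterase inhibited by cyclic GMP, rose with the block by 0.69 ± 0.19 (edgeR, adjusted p = 0.0396) and was at 37.8 CPM in stem, 45.0 CPM in enterocyte and 1.78 CPM in goblet cells. Of the 12 scaffolds and cotransporter kinases (11 tested, median -0.09), Ezr (ezrin) and Slc9a3r1, a scaffold that binds Cftr, were at 208 and 160 CPM in enterocytes, against 101.9 and 38.4 CPM in stem cells. Wnk1, a kinase upstream of the cotransporter, was at 173 CPM in tuft, 169 CPM in enteroendocrine and 103 CPM in stem cells. Sgk1, a kinase that regulates ion transport, was at 57.9 ± 57.1 CPM in control stem cells (SD, n = 8), a wide spread between mice. With the block it rose in clones by 1.19 ± 0.27 (SE; edgeR, adjusted p = 0.0194).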

How the data were processed

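Single-cell RNA and hashtag libraries of 2 pools were used, as UMI counts per gene and barcode that the authors deposited. Cell Ranger 6.1.2 and the mm10 build are named per the submitters' processing notes, and the deposited gene identifiers and barcodes were used per the file headers. Hashtag counts were assigned to 8 mice with HTODemux (Seurat 5.3.0, positive quantile 0.99), which removed barcodes with several hashtags as doublets, so 2 cells of the same hashtag stayed undetected. Of 4029 assigned barcodes, 1993 were kept, with minima of 1000 UMIs and 500 detected genes and a mitochondrial share below 20%. Cells were clustered with scanpy 1.11.5 (2000 variable genes, 30 components, 15 neighbours, Leiden resolution 1), with the 7 genes and the 83 list genes kept out of the variable genes.

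UMIs were summed per mouse and gate, and per class where at least 10 cells and 3 sums a gate were present. The sums were tested with edgeR 4.0.16 in R 4.3.3 (filterByExpr, TMM, quasi-likelihood, pool as covariate, Benjamini-Hochberg adjustment over all genes, threshold 0.05), and DESeq2 1.42.0 was an alternative. Class levels were compared by exact two-sided sign-flip tests over mice of log2(CPM + 1), with scipy 1.17.1 in python 3.11.15. The clone and control sums of a number come from the same mouse; their residuals correlated at 0.226 to 0.555 in the 72 h mice and at -0.000681 to 0.0891 in the 48 h mice, and a fit with the mouse as a block was an alternative. Sums were also simulated without any likeness between the gates of a mouse and tested without the block. Changes of 2 on the log2 scale were recovered for 66% of changed genes at 48 h (10420 genes tested) and 97% at 72 h (10437 genes tested). Changes of 1 were recovered for 19% and 60%, with 4 and 7 false calls. These rates do not apply to the fit with the block. Other alternatives were a Gaussian mixture per hashtag, other cell filters and clusterings, DESeq2 size factors, no filter on low counts and leaving out each mouse.

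The members and the lists were chosen with earlier results of these data known. Named genes are the 7 members, the 3 most abundant genes of each list, each list gene called in a contrast over all cells, and the 3 genes most like each member over the control classes; a few genes that this rule names are not reported here. The class pairs other than enterocyte and stem, the cluster pairs and the control classes by time were added after values were seen. Mice are the replicates, and UMI totals limit the precision.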

Additional observations from a re-analysis of the deposited data

Results flagged for a closer look

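In groups of 4 to 8 mice, 11 of 84 sets of CPM values of the 7 genes held 1 mouse far from the others by Dixon's criterion, where chance gives about 1 in 20. Over all cells these were Cftr in the control cells of mouse 8 (66.9 CPM, against 124 to 131 in the other 72 h mice) and Slc12a2 in the clones of mouse 8 (775 CPM, against 1252 to 1256). Both of these values of mouse 8 lay below those of the other 72 h mice.

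Within control classes, mouse 6 was high for Cftr in dividing cells (223 CPM, against 135 to 176), for Gucy2c in enterocytes (144 CPM, against 79.1 to 100.2), for Kcnq1 in enterocytes (74.7 CPM, against 19.3 to 36.1) and for Slc12a2 in goblet cells (1097 CPM, against 533 to 742). Mouse 3 was low for Cftr in enterocytes (55.9 CPM, against 113 to 155). Mouse 7 was high for Guca2b in enterocytes (458 CPM, against 96.1 to 243). Mouse 5 was high for Gucy2c in tuft cells (318 CPM, against 110 to 128) and for Guca2a in Slfn9-led cells (141 CPM, against 0 to 23.5). Guca2b in tuft cells was at 10.7 CPM in mouse 8, against 0 in the other 3 mice.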

How the results depend on the processing

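Over the comparisons of clones with control and of 72 h with 48 h, the count of members called moved by over 1.5 times or left 0 in 19 cases and did not in 112. With the mouse as a replicate block, 1 member was called at 48 h (Cftr), 1 at 72 h (Slc12a2), 4 over both times (Cftr, Slc12a2, Guca2a and Guca2b), 2 within a class over both times and 2 within a class at 72 h, and the block changed no other call. DESeq2 called 1 at 48 h (Cftr, against 1.64% of genes) and 2 over both times (Cftr and Slc12a2, against 4.55%). Without a filter on low counts 3 were called at 48 h (against 2.18% of genes), 1 at 72 h (1.52%), 6 over both times (3.96%), 2 between clones at 72 h and 48 h (0.674%), and 1 within a class (Cftr in goblet cells, 0.148%). Over both times 1 was called with mitochondrial UMIs under 10% (Cftr, against 0.285% of genes) and 2 with them under 50% (Cftr and Slc12a2, against 1.43%). Leaving out 1 mouse gave 0 to 1 called over both times (Guca2b without mouse 3, Cftr without mouse 4 or mouse 8, against 0.41%, 0.513% and 0.418% of genes), 0 to 1 in control cells at 72 h against 48 h (Cftr without mouse 8, against 0.503%) and 0 to 1 within a class (Cftr in goblet cells without mouse 6, against 0.085%). The block could not be fitted to comparisons of 72 h with 48 h, which are between different mice.

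For enterocytes against stem cells, the alternatives changed a sign in 5 cases and lost the threshold in 12, and all the others run kept direction and side of the threshold. The difference of Guca2b, 3.61, was 4.26 at Leiden resolution 0.6 and 2.97 with a pseudocount of 10 CPM, and the size of the Slc12a2 and Kcne3 differences moved as given with them. With hashtags assigned by a Gaussian mixture too few mice remained for an exact p under 0.05 (the smallest possible was 0.25), with differences of -0.30 for Cftr, -5.99 for Slc12a2, -1.75 for Kcnq1, -2.97 for Kcne3, 3.66 for Guca2a and 3.95 for Guca2b. The same holds for clone cells, with differences of -0.49, -5.46, -2.72, -2.08, 3.17 and 3.44 in that order. Gucy2c, near 0 throughout, turned to -0.18 with mitochondrial UMIs under 10%, -0.088 and -0.064 at Leiden resolutions 0.6 and 1.5, -0.011 with the secretion genes allowed in clustering and -0.045 in clone cells. Over all cells at 72 h the Gaussian mixture turned Guca2a to 0.079 and Gucy2c to 0.15. Leaving out 1 mouse, Kcnq1 at 48 h ran from -0.046 to 0.96, and Gucy2c from -0.17 to 0.33 at 48 h, from -0.047 to 0.053 at 72 h and from -0.090 to 0.17 over both times. The cause of these changes was not tested. The 48 h clones held 4 to 83 cells per mouse, which limits the precision of their values.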
